A study of Brassica napus with 6 samples.

Results

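Of the 327 miRNAs that were predicted from small RNA reads of Brassica napus (oilseed rape) shoot apices, 263 had a mean count below 100 over the 4 small RNA files, and these low-abundance predicted miRNAs are described here. They made up 65.6% of the 401 miRNAs listed, beside 64 predicted miRNAs with a mean count of 100 or more and 74 known miRNAs with names beginning bna. The study compared normal plants with a form it names rod-like, both from 1 field and taken 3 months old at early bolting, and each RNA sample pooled the apices of 6 plants. The labels give no genotype, cultivar or treatment for either form. The tissue is named as shoot apex and as shoot apical meristem, and small RNA counts hold no marker genes against which to check it.

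In plants, a miRNA is cut from a folded hairpin transcript by a Dicer-like enzyme and loaded onto an Argonaute protein, which it guides to matching mRNAs to cleave them or block their translation. Known families such as miR166 or miR319 are shared between many plants and are often abundant. Predicted miRNAs are small RNAs whose genomic surroundings could fold into such a hairpin, and those found in 1 species alone are typically scarce and in many cases have no known target. A small interfering RNA from a hairpin-like locus can resemble a miRNA at low read numbers. The abundance files used here pair names with counts, so no sequence, locus or target is given for these 263, and none of them has an assigned role here.

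The members were chosen by abundance, so the following levels are a description. Their mean counts ran from 10.25 to 99.5 with a median of 23. Of the 263, 141 had a mean count from 10 to 25, 72 from 25 to 50 and 50 from 50 to 100, and none lay below 10. The list of predicted miRNAs stopped at 41 summed counts over the 4 files, whereas 9 known miRNAs had a mean count below 10, down to 2.75. No member had a count of 0 in any file: the lowest count was 2 in normal 1, 4 in normal 2, 5 in rod-like 1 and 3 in rod-like 2. Numbers in the names, which run from 54 to 327 among the members, followed abundance, with a Spearman rho of -0.98 between number and mean count across the 263, a description of points that come from the same 4 files. Number and the log2 ratio of rod-like to normal had a rho of 0.06.

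**Figure D1:**
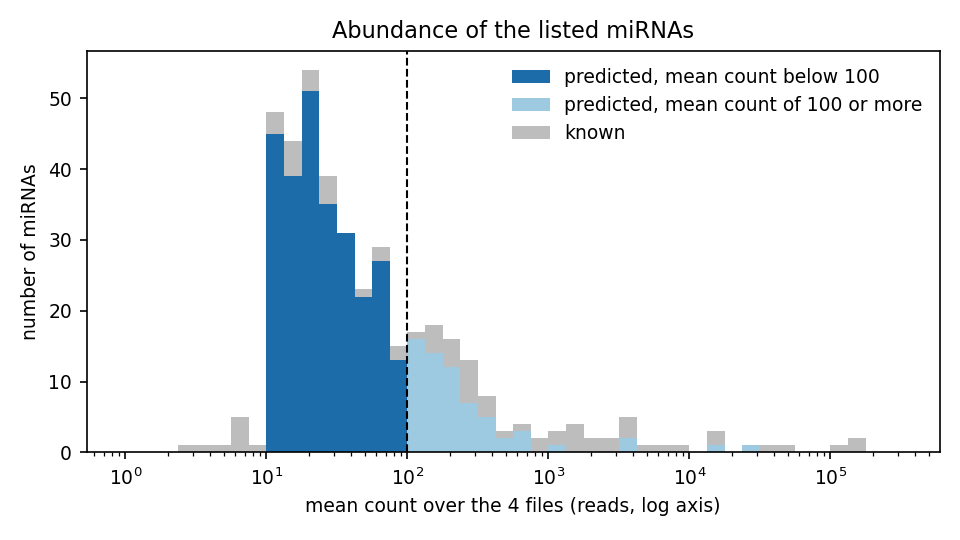
Number of miRNAs (vertical axis) by mean count over the 4 small RNA files (horizontal log axis, in reads), stacked by list. The dashed line marks a mean count of 100. The 263 predicted miRNAs to its left begin at 10.25, while known miRNAs reach from 2.75 to 172113 reads.

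Just below the limit stood novel_mir_54, with 113 and 104 normal counts against 83 and 98 rod-like counts, and novel_mir_65, with 98 and 98 against 78 and 109. The third was novel_mir_61, with 89 and 83 counts in normal against 113 and 97 in rod-like files. Just outside were novel_mir_69 at a mean of exactly 100, then novel_mir_60 at 100.25 and novel_mir_63 at 101. The limit therefore falls within a continuous range of levels. The next most abundant members were novel_mir_75, with 81, 98, 90 and 86 counts in normal 1, normal 2, rod-like 1 and rod-like 2, and novel_mir_71, with 81, 85, 81 and 95. Files of the 2 plant types overlapped for both.

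At the other end, novel_mir_322 had 16 and 8 counts in the normal and 9 and 8 in the rod-like files. For novel_mir_311 the counts were 13 and 9 against 8 and 12, for novel_mir_325 11 and 7 against 11 and 13, and for novel_mir_294 15 and 11 against 5 and 12. In these 4 the spread between files of 1 plant type was as wide as the distance between plant types. The fifth of the scarcest, novel_mir_304, did separate the plant types and is described with the higher members.

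Together the 263 held few of the reads. Their summed counts were 7941 in normal 1, 7937 in normal 2, 8486 in rod-like 1 and 8439 in rod-like 2. Of all listed counts this was 1.27% and 1.26% for the normal files, against 1.19% and 1.18% for the rod-like ones. Among predicted miRNAs alone, 80.4% of the names held 15.5% and 15.3% of the counts of the normal files, and 8.78% and 8.61% of those of the rod-like files. This last drop lies beside a higher summed level of the 64 abundant predicted miRNAs, 1.88-fold higher in rod-like (1.85 to 1.90). Most of those 64 did not share it: 25 lay above and 39 below a ratio of 1, with a median log2 ratio of -0.11. Listed counts per file totalled 625795 to 713637, the lower end being a normal and the upper a rod-like file.

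Files of the same plant type differed by no more than counting noise, over these members as over the whole list. In a chi-square test over 262 members, the statistic per degree of freedom was 0.958 for the pair of normal files (p = 0.676). The chi-square test of the pair of rod-like files over 263 members gave 1.05 (p = 0.292). They were therefore counted as 1 sample of each plant type, although the labels list 2 samples of each, so differences between plant types have no replicate check and apply to these libraries. Across plant types this statistic lay between 2.11 and 2.15 for the 4 pairs of single files. The same statistic across plant types was 256 to 264 for abundant predicted and 284 to 288 for known miRNAs, where far higher counts make any given fold weigh more. Known miRNAs also differed by larger folds. The standard deviation of their log2 ratios was 1.12, against 0.53 for the members and 0.41 for abundant predicted miRNAs.

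Between files of the same type, the log2 ratio of single files had a standard deviation over members of 0.47 in normal and 0.48 in rod-like. Between plant types it was 0.64 for the files numbered 1 and 0.65 for those numbered 2. The gap depended on level. At mean counts of 10 to 25 it was 0.56 and 0.59 within against 0.68 and 0.67 between plant types, and at 50 to 100 it was 0.25 and 0.27 against 0.47 and 0.48. With both files of each type used, the standard deviation of the log2 ratio was 0.53 over the 263, where counting error alone gives 0.32.

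**Figure D2:**
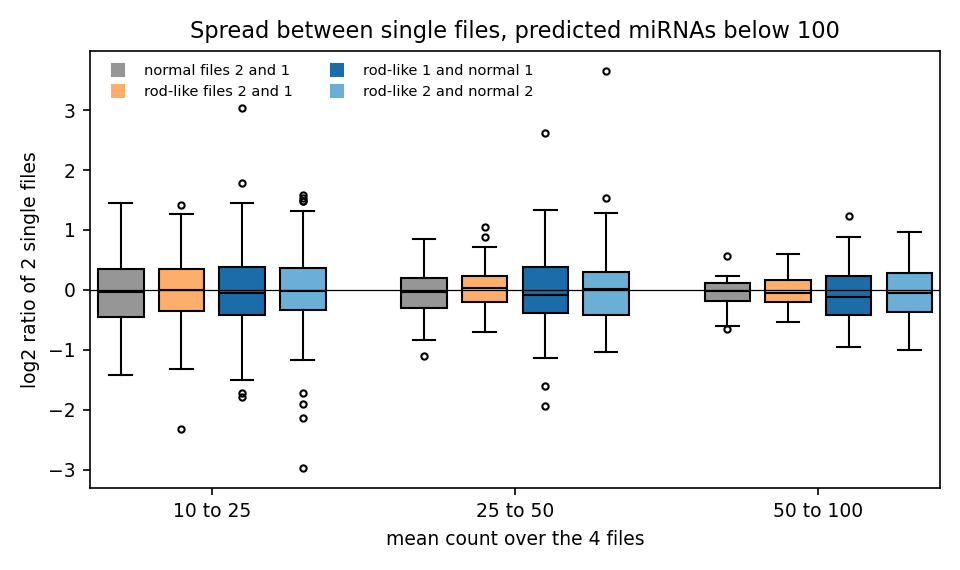
Log2 ratio of single files (vertical axis) for the 263 low-abundance predicted miRNAs, grouped by mean count over the 4 files (horizontal axis). Boxes span the quartiles with the median as a line, whiskers reach 1.5 times the box and points lie beyond. Boxes for pairs of the same plant type narrow as counts rise, to standard deviations of 0.25 and 0.27 at 50 to 100 counts, while those between plant types stay wider there, at 0.47 and 0.48.

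To compare rod-like with normal apices, the mean count of the 2 files of each type was divided by a library size corrected with TMM factors and expressed per 1000000 reads of listed miRNAs (RPM). The ratio of rod-like over normal was given a 95% counting interval. PCR reads are not independent molecules, so these intervals cover counting error only. The summed level of the 263 was 12360 RPM in the normal and 12151 RPM in the rod-like sample, for a ratio of 0.983 (0.953 to 1.01). The median log2 ratio was -0.03 over the members and -0.01 over all 401 miRNAs, and 120 members lay above and 143 below a ratio of 1. Members make up 262 of the 391 miRNAs on which the TMM factors rest, so a median near 0 is in part set by the scaling. Known miRNAs had a median of 0.37 on this scale.

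How the members stand as a group depended on which miRNAs are held level. With factors from the known miRNAs alone, every log2 ratio moved by -0.50, the median of the members became -0.53 and 224 of 263 lay below a ratio of 1. Their summed level was then lower in rod-like, with a ratio of 0.697 (0.676 to 0.719). Scaled by the total count alone the ratio of the sums was 0.938 (0.910 to 0.967). The data hold no spike-in, and which scaling reflects the amount per cell was not tested.

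Most of the 263 did not stand apart one by one by their intervals. The counting interval lay clear of a ratio of 1 for 21 members (7.98%), 11 of them higher and 10 lower in rod-like, where the same rule took 88 of 401 listed miRNAs (21.9%), 13.2% higher and 8.73% lower. With factors from the known miRNAs alone the intervals of 71 members lay clear of 1, 2 higher and 69 lower, beside 41.1% of all listed miRNAs. Of the 21, 9 differed by at least 2-fold, 4 higher and 5 lower (1.52% and 1.90% of the members), against 3.99% higher and 2% lower among all listed, 5.99% in all. Intervals from summed counts, which are narrower, lay clear of 1 for 53 members, 26 higher and 27 lower, beside 34.2% of all listed. The share clear of 1 went with abundance, from 4 of 141 members at 10 to 25 counts to 8 of 72 at 25 to 50 and 9 of 50 at 50 to 100.

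Among the 19 known miRNAs in the same range of counts, 4 were higher and 2 lower by this rule. Set beside one another without a test, that is 31.6% against 7.98% of the members. Scaled on the known miRNAs alone, 71 of 263 members were called, 69 of them lower. Of the 4 higher known miRNAs, bna-miR167d, bna-miR9409 and bna-miR9569 had intervals that began at 1.06, 1.30 and 1.28. That scaling took novel_mir_188, whose interval began higher at 1.33, down to 0.943, so these calls would be lost too. The remaining higher one, bna-miR408b, had an interval that began at 6.20, and it and the 2 lower ones would keep their calls. Among the known miRNAs not called, the lowest upper bound was 1.48, for bna-miR169o. A move of -0.50 on the log2 scale would leave that bound above 1. Read from these bounds, the known share would fall while that of the members rises, so the contrast does not hold under that scaling. It applies to the TMM factors from 391 miRNAs alone.

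Most members were not told apart by this rule. Of the 242 whose interval held 1, 73 had an interval within 2-fold on either side, so a larger difference lies outside their counting error. The other 169 had intervals that reached beyond 2-fold, 127 of them at 10 to 25 counts. A member with 16.25 counts in each plant type, the median of that range, would have an interval of 0.471 to 2.12, and one with 67.125 counts an interval of 0.702 to 1.42. Intervals from the summed counts of the 2 files are narrower, and those from mean counts are on the cautious side.

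**Figure D3:**
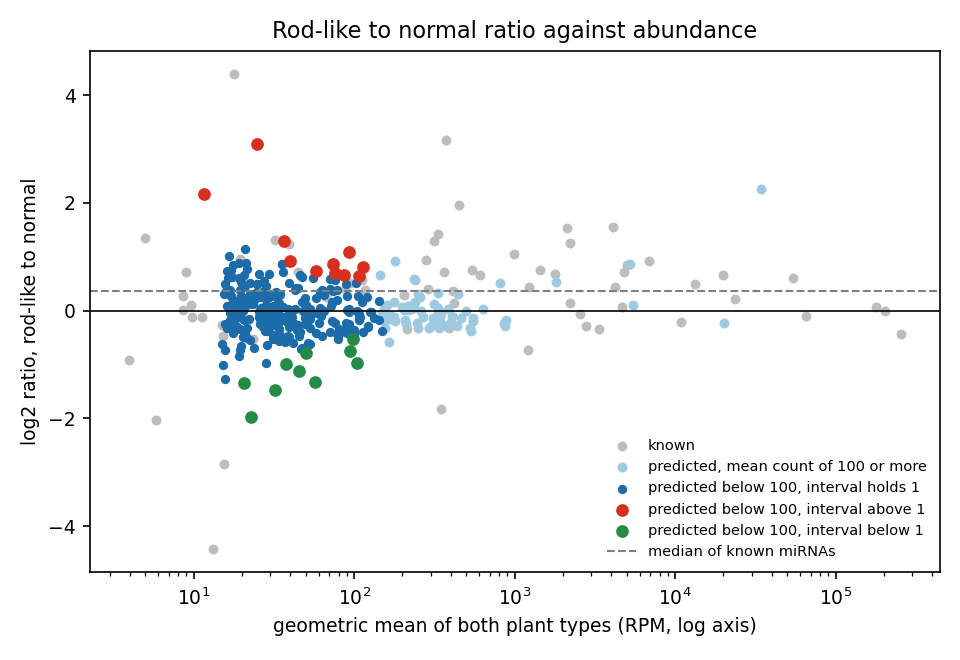
Log2 ratio of rod-like to normal (vertical axis) against the geometric mean abundance of both plant types (horizontal log axis, in RPM) for 401 miRNAs, 1 point each. The 21 low-abundance predicted miRNAs with an interval clear of 1 are 11 red and 10 green points. The dashed line is the median of the known miRNAs, at 0.37, and most of the 263 lie below it.

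Among the higher members, novel_mir_225 had 7 and 4 counts in normal apices against 47 and 54 in rod-like ones. Both rod-like files lay far above both normal files, and the ratio was 8.47 (3.52 to 25.5). This was the highest ratio of the 263. For novel_mir_304, the counts were 2 and 5 against 18 and 16 and the ratio was 4.48 (1.38 to 20.5), an interval whose width reflects a mean of 3.5 normal counts. Without normal 2 its ratio was 7.90 and that of novel_mir_225 was 6.70, so their order rests on that file. novel_mir_304 was among the 5 scarcest members, and its rod-like files did not overlap its normal files.

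The normal files both held 15 counts of novel_mir_188, and the rod-like files 41 and 39, a ratio of 2.46 (1.33 to 4.79). For novel_mir_85 there were 39 and 43 counts against 101 and 88, a ratio of 2.13 (1.46 to 3.15). For these the 2 files of each type lay close together relative to the distance between types. At higher counts, novel_mir_68 went from 55 and 55 to 93 and 115 counts, with a ratio of 1.74 (1.25 to 2.46). Counts of novel_mir_118 were 32 and 38 against 65 and 73, with a ratio of 1.82 (1.19 to 2.81).

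The other 5 higher members had ratios from 1.57 to 1.89, and their intervals began between 1.03 and 1.11. For novel_mir_76 the counts were 50 and 60 against 91 and 96, and for novel_mir_109 they were 45 and 32 against 68 and 67. For novel_mir_97 they were 41 and 47 against 83 and 67. For both novel_mir_109 and novel_mir_97 the 2 files of 1 plant type differed by more than 10 counts, and each lost its place when 1 file was left out: novel_mir_109 without normal 2 (ratio 1.39) and novel_mir_97 without rod-like 1 (ratio 1.41). Counts of novel_mir_150 were 13 and 24 against 36 and 40, and without normal 1 its ratio was 1.48 and the interval held 1. Counts of novel_mir_129 were 29 and 29 against 53 and 51.

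Scaled on the known miRNAs alone, 2 of the 11 higher members kept an interval above 1, novel_mir_225 with a ratio of 6.00 (2.50 to 18.1) and novel_mir_85 with 1.51 (1.03 to 2.23). The other 9 kept a ratio above 1, from 1.11 for novel_mir_76 to 3.18 for novel_mir_304, with intervals that held 1. That of novel_mir_304 began at 0.982 and that of novel_mir_188, with a ratio of 1.74, at 0.943. That scaling lowers every ratio by the same factor, so it could not take a call from the 10 lower members.

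Of the lower members, novel_mir_209 had 25 and 33 counts in normal apices and 8 in each rod-like file, which is 3.93-fold lower in rod-like (1.75 to 9.95). Both rod-like files lay far below both normal files. For novel_mir_164 the counts were 32 and 37 against 15 and 12, 2.77-fold lower (1.44 to 5.65). Counts of novel_mir_142 were 61 and 54 against 22 and 28, 2.49-fold lower (1.53 to 4.16). In these 3 the files of each type lay within 8 counts of one another, and the plant types did not overlap. At higher counts novel_mir_81 went from 86 and 103 to 49 and 55, 1.97-fold lower (1.39 to 2.82).

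The remaining 6 lower members each lost their call when 1 file or another was left out. For novel_mir_313 the normal files held 20 and 22 counts and the rod-like files 15 and 3, a 2.53-fold lower mean (1.11 to 6.27) that rests on rod-like 2. Without that file the ratio was 0.660 and the interval held 1, and without rod-like 1 the ratio was 0.132. For novel_mir_130 the counts were 49 and 37 against 14 and 29, 2.17-fold lower (1.26 to 3.83), and without rod-like 1 the ratio was 0.624 with an interval that held 1, against 0.301 without rod-like 2. For novel_mir_106 they were 62 and 94 against 51 and 50, 1.67-fold lower (1.16 to 2.44), and without normal 2 the ratio was 0.757 and the interval held 1. The normal files of novel_mir_106 were 32 counts apart, more than the 11 that separated the nearest files of the plant types.

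Counts of novel_mir_184 were 28 and 40 against 16 and 21, 1.99-fold lower (1.10 to 3.72), and the interval held 1 without normal 2 (ratio 0.614) or without rod-like 1 (ratio 0.571). Those of novel_mir_133 were 50 and 34 against 25 and 28, 1.72-fold lower (1.03 to 2.91), and the interval held 1 without normal 1 (ratio 0.728) or without rod-like 1 (ratio 0.617). Those of novel_mir_88 were 74 and 77 against 58 and 55, even within each type and 1.45-fold lower (1.01 to 2.08). Its ratio hardly moved, from 0.690 to 0.709 without normal 2 and 0.710 without rod-like 2, but the interval then just held 1. With each file left out in turn, 12 of the 21 kept an interval clear of 1 all 4 times, 8 higher and 4 lower.

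**Figure D4:**
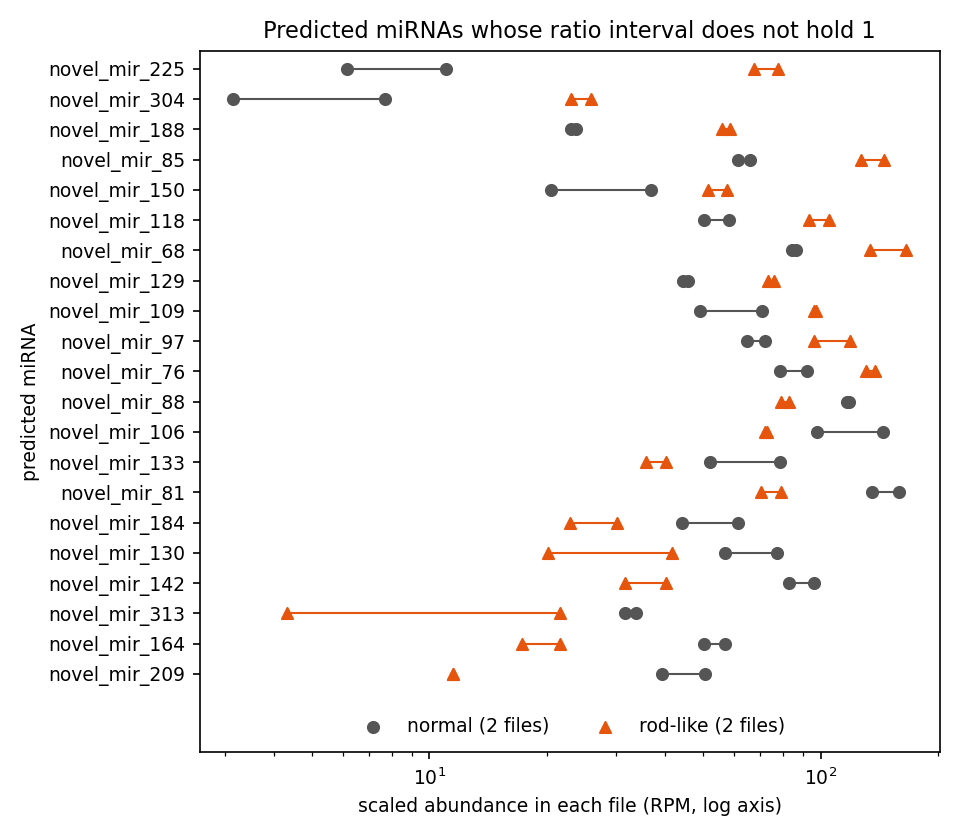
Scaled abundance (horizontal log axis, in RPM) of the 21 low-abundance predicted miRNAs whose ratio interval does not hold 1, with 1 row for each, ordered by ratio from 8.47 at the top to 0.254 at the bottom. Grey circles are the 2 normal files and orange triangles the 2 rod-like files, joined by a line. The files of the plant types do not overlap in any row, and the files of 1 type lie widest apart for novel_mir_313.

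The bulk of the group is shown by the members nearest the median ratio of each abundance range. Counts of novel_mir_219 were 21 and 19 (normal) against 29 and 14 (rod-like), with a ratio of 0.991 (0.514 to 1.92). Counts of novel_mir_115 were 42 and 42 against 43 and 47, with a ratio of 0.988 (0.634 to 1.54), and those of novel_mir_84 were 78 and 67 against 75 and 70, with a ratio of 0.922 (0.657 to 1.30). In all 3 the files of the plant types overlapped. Over the 242 members with intervals that held 1, ratios ran from 0.417 to 2.20. Scaled files of the plant types did not overlap for 131 of the 263 (49.8%), 62 higher and 69 lower, beside 58.1% of all listed miRNAs, 30.2% higher and 27.9% lower. Separation of only 2 files of each type is a loose criterion, and how often counting error alone gives it was not tested. The share was 39% of members at 10 to 25 counts and 68% at 50 to 100.

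Taken as 4 separate files, edgeR's quasi-likelihood test called more. Of the 263 members, 262 passed its low-count filter, all but novel_mir_322, and 11 passed through 1 plant type alone. Of these, 4 were then called: novel_mir_225 and novel_mir_304, higher, and novel_mir_209 and novel_mir_312, lower. Members that pass in this way have the files of the plant types on opposite sides of the filter's cutoff, so their calls give no support to the count. At a Benjamini-Hochberg adjusted p of 0.05 over all 391 miRNAs tested, 38 members were called, 20 higher and 18 lower, which is 14.5% beside 28.1% of all tested (16.6% higher and 11.5% lower). The 38 include all 21 given above and 17 whose counting interval held 1, with ratios from 1.40 to 2.20 for 9 higher and from 0.417 to 0.769 for 8 lower members. Among the 17 was novel_mir_54, the most abundant member, whose ratio was 0.769 (0.575 to 1.03). Its spread is that between files of what may be 1 library, so this test compares these libraries and not the plant types.

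DESeq2's Wald test called 8 members, 4 higher and 4 lower, beside 14.2% of all listed miRNAs. They were novel_mir_225, novel_mir_188, novel_mir_85 and novel_mir_68, higher in rod-like, and novel_mir_209, novel_mir_164, novel_mir_142 and novel_mir_81, lower in rod-like. All 8 were also called by edgeR, by edgeR with the replicate number as a block, which called 9 members and 13.6% of all tested, and by the counting interval. These rules read the same 4 counts per miRNA and are not independent of one another. Of the 8, novel_mir_225 and novel_mir_209 passed edgeR's filter through 1 plant type alone, so their edgeR calls add no support. All 8 kept their interval clear of 1 with each file left out. With factors from the known miRNAs alone edgeR called 4 members higher and 95 lower, beside 50.6% of all tested. With 1 file left out at a time edgeR called 17 members without normal 1, 24 without normal 2, 24 without rod-like 1 and 28 without rod-like 2. The shares of all miRNAs tested were 18.2%, 20.6%, 22.3% and 21.9% in the same order.

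Applied to single files within a plant type, the interval rule shows how often counting error gives a call between 2 such files. The files of a type may be 1 library, so this is no measure of variation between samples of a type. With the interval rule applied to single files, 9 of 263 members (3.42%) had an interval clear of 1 between the normal files and 8 (3.04%) between the rod-like files. Over all listed miRNAs the shares were 4.24% and 4.49%. Between single files of the 2 plant types it was 34 to 37 members, 12.9% to 14.1%, beside 24.7% to 26.2% of all listed miRNAs. Calls from the mean of 2 files use an interval as wide as for 1 file. The shares within a plant type therefore do not carry over to those calls.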

How the data were processed

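Small RNAs 18 to 30 nt long were taken from a gel and carried through adaptor ligation, reverse transcription and PCR, then read on an Illumina Genome Analyzer, as the labels state. Each file lists the authors' deposited counts for 1 library, whole numbers without normalization. Neither the mapper nor the miRNA predictor is given in the sources used here, and reads of near-identical miRNAs could have been split or shared. Degradome records were not used here, since their predicted miRNA names are not joined to these.

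The members, limits and tests were chosen with earlier results of these data known. Known and predicted miRNAs were fitted together. The edgeR fits took those that passed the low-count filter in use, 391 of 401 in the main fit, and DESeq2's Wald test took all 401. TMM factors came from miRNAs that passed edgeR's filterByExpr. Ratios use mean counts of the 2 files of a plant type, with Clopper-Pearson 95% bounds on mean counts, which need not be whole, and these are wider than the summed counts would give. The counting error set against the spread of log2 ratios is that of the summed counts. The edgeR test (edgeR 4.0.16, R 4.3.3) used robust fitting. DESeq2 1.42.0 was an alternative. Tables used Python 3.11.15, pandas 2.3.3 and SciPy 1.17.1.

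The named members are the 5 most and 5 least abundant, the 3 on each side of the limit, up to 12 in each direction with an interval clear of 1 and files that do not overlap, ranked by the bound nearest 1, any at 0 counts in both files of a type (there were none), and the member nearest the median ratio of each range of counts. Alternatives covered scaling, filters, limits of 50 and 200, each file left out, the replicate block and summed counts.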

Additional observations from a re-analysis of the deposited data

How the results depend on the processing

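Low counts (a median of 23 per member), 1 sample per plant type and the scaling all limit these results. With scaling on known miRNAs alone, edgeR calls went from 38 to 99, interval calls from 21 to 71, the ratio of the summed level from 0.983 to 0.697 and the median log2 ratio from -0.03 to -0.53. That scaling rests on other miRNAs, whose median lies higher. The total count alone gave a ratio of the sums of 0.938 and a median of -0.10. It split the edgeR calls into 16 higher and 24 lower and the interval calls into 10 and 16. DESeq2's size factors gave a split of 17 and 21 in edgeR. The shares of all listed miRNAs were not counted under either scaling. DESeq2's Wald test called 8 and edgeR with the replicate block 9 members, which were all among the 38; same-numbered files did not deviate together (correlation 0.007 over the members), so the numbers were not taken to pair them. Intervals from summed counts, which are narrower, called 53 members, and a 2-fold minimum left 9. A limit of 50 counts, which leaves 213 members, gave 23 edgeR and 12 interval calls. Leaving out 1 file gave 17 to 28 edgeR calls, fewest without normal 1 (17) and 24 without normal 2 or rod-like 1. Interval calls were then 29 to 33, more than with all files, most without rod-like 2. The ratio of the sums was then 0.984 to 0.996, and the median -0.0274 to 0.00373 on the log2 scale. Dropping or changing the low-count filter left 38 edgeR calls. No named member with an interval clear of 1 changed direction under any scaling or with any file left out.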
